A study of Mus musculus with 12 samples.

Results

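Il21, Il4, Bcl6, Maf and Nfil3 are the genes of follicular and type 2 helper T cells described here, 5 rows taken by symbol from a count table of 13404 genes. All 5 passed the filter on low counts that left 9495 genes to test. The table comes from RNA sequencing of 12 poly(A) libraries of CD4 T cells sorted by flow cytometry from the spleen of C57BL/6 mice. Regulatory T cells (Treg) were sorted as CD4+CD25+, a gate that recently activated cells can share, and conventional T cells (Tconv) as CD4+ cells. For each cell type there were 2 libraries from aged wild-type mice (over 18 months), 2 from mice labelled Dcaf1-deficient (2 months) and 2 from young wild-type mice (2 months). The allele and the Cre driver behind the Dcaf1-deficient label are not given in the sources used here. Nor do the labels say whether the libraries of a group came from separate animals, so p-values measure the spread between these libraries, which may be technical.

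Follicular helper T cells are CD4 cells that enter the B cell follicle and help germinal centre B cells. Bcl6, a transcriptional repressor, is required for them, and IL-21 is their best known cytokine, acting on B cells together with IL-4. Maf (c-Maf) is a basic leucine zipper activator that promotes transcription of Il21 and Il4, and also of Il10. Type 2 helper T cells are the classical source of IL-4, under the transcription factor GATA3. Nfil3 (E4BP4) is a basic leucine zipper repressor that takes part in type 2 cytokine regulation and in the circadian clock. In Treg, Bcl6 and Maf are also known from follicular and effector subsets.

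All 5 genes lie on the minus strand of mm10 in the GENCODE M21 annotation. Il21 spans chromosome 3, 37222759 to 37232636; Il4 spans chromosome 11, 53602982 to 53618669; Bcl6 spans chromosome 16, 23965052 to 23988852. Maf spans chromosome 8, 115682942 to 115707794, and Nfil3 spans chromosome 13, 52967209 to 52981073. Exons of Il21 share 469 bases with the antisense gene Gm12534, those of Maf 440 bases with Gm15655 and those of Bcl6 21 bases with Gm37419. Whether strand was used in counting is not stated, so reads over those bases cannot be told apart. The 250 bases before the start sites of the cytokine genes are shown because Il21 and Il4 had low counts in most groups and high counts in aged Tconv. They come from RefSeq on GRCm38.p6 (the build of mm10) and are written along the gene's strand, with capitals for TGCTGA (the core of a Maf element) and for GGAAA (the core of an NFAT site), read on both strands.
Il21, chr3:37232637-37232886: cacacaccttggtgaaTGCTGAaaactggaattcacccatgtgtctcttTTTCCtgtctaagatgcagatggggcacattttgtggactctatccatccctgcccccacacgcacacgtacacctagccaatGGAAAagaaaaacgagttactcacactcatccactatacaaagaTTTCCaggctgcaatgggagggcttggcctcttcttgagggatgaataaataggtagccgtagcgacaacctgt
Il4, chr11:53618666-53618915: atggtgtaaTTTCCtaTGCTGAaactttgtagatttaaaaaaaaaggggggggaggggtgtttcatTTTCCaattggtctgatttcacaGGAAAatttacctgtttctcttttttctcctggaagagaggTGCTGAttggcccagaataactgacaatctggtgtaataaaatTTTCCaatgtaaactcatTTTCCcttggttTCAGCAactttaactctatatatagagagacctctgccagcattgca
The Il21 window held TGCTGA starting 234 bases before the start site, and GGAAA at 201, 118 and 74 bases. In the Il4 window TGCTGA lay at 234 and 120 bases and, on the opposite strand, at 47 bases, and GGAAA matched 5 times. No match overlapped another. TGCTGA is found in 16.1% and GGAAA in 55.6% of the 32851 RefSeq promoter windows of the same length, so neither is rare. Of the other members with a window in that table, Bcl6 had, at its outermost start site, GGAAA at 166 bases and TTCNNNGAA (the STAT core) at 118 bases, a motif of 7.02% of windows, and Nfil3 had no match to any of 6 motifs. The NFIL3 letters TTANGTAA (2.06% of windows), TGANTCA (AP-1, 6.75%) and GATAA (GATA, 22.6%) had no match in these windows, which says only that those letters are not there. The table holds a second, inner window for Il4, with no match to the 6 motifs, and for Bcl6, with TTCNNNGAA at 168, 122 and 88 bases and GGAAA at 239, 163 and 28 bases, of which 1 pair overlaps. GC content was 47.6% for Il21, 37.6% for Il4, 58.4% for Bcl6 and 81.6% for Nfil3, against a median of 52.4% over all windows.

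Libraries held 18358477 to 26852448 estimated counts, and levels are given as CPM, counts scaled by TMM to library size, for replicate 1 and then replicate 2. Dcaf1, named Vprbp in the table, had 102 and 101 CPM in labelled Treg and 144 and 128 CPM in young Treg, a log2 fold change of -0.42 that did not pass (SE 0.14, adjusted p 0.148 by edgeR). It had 132 CPM in both labelled Tconv libraries, against 147 and 144 CPM in young Tconv (-0.14, SE 0.14, adjusted p 0.731 by edgeR). A loss of some exons would not be seen in a count summed over all of them. The Dcaf1-deficient libraries are therefore named by their label. Aged Treg 1 stood apart from its replicate: over the tested genes its log2 CPM correlated at 0.993 with labelled Treg 1 and at 0.914 with aged Treg 2. Young Treg 2 likewise correlated at 0.971 with aged Treg 1 and at 0.937 with young Treg 1. Aged Treg 1 and young Treg 2 are called the doubted libraries below. Macrophage marker transcripts (10 of 12 in the table) summed to 10931 and 632 CPM in aged Treg, 12900 and 16021 CPM in labelled Treg and 147 and 4372 CPM in young Treg. They summed to 74.7 and 77.2 CPM in aged Tconv, 1072 and 1153 CPM in labelled Tconv and 19.2 and 282 CPM in young Tconv. Xist, made from the inactive X chromosome of females, was at 1263 to 2018 CPM in aged Treg 2, labelled Treg 2, aged Tconv 2 and both labelled Tconv libraries, and at 1.37 to 2.94 CPM in the other 7. Label and sex therefore cannot be told apart in Tconv. The titles also carry a tag of unstated meaning (L3, L4 or L5), and L3 marks the second library of aged Treg and of aged Tconv.

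Il21, the follicular helper cytokine, was highest in aged Tconv. In Treg it had 11.4 and 6.53 CPM in aged libraries, 12.9 and 4.58 CPM in labelled libraries and 1.51 and 0.909 CPM in young libraries. It had 155 and 90.0 CPM in aged Tconv, 10.2 and 10.3 CPM in labelled Tconv and 9.10 and 5.89 CPM in young Tconv. Both aged Tconv libraries lay above every other library and both young Treg libraries below every other, while the Treg groups in between overlapped both remaining Tconv groups. The aged Tconv mean was 123 ± 46.3 CPM against 7.49 ± 2.28 CPM in young Tconv (SD, n = 2 each), a log2 fold change of 4.03 (SE 0.59, edgeR adjusted p 0.0159). In Treg the difference was 2.89 for aged against young (SE 0.58, 95% interval 1.54 to 4.23, edgeR adjusted p 0.126) and 2.86 for labelled against young (SE 0.58, interval 1.52 to 4.199, edgeR adjusted p 0.131). Neither passed in edgeR, although the groups did not overlap. DESeq2 called both, with adjusted p of 6.2e-05 and 0.000105. Those 2 comparisons share the young Treg libraries, which held only 32.3 and 21.4 estimated counts of Il21. Without aged Treg 1 the aged value was 2.43 (edgeR adjusted p 0.0830). With 1 library left out the labelled value ranged between 1.92 (without labelled Treg 1) and 3.42 (without labelled Treg 2). In labelled against young Tconv the difference was 0.45 (SE 0.53, edgeR adjusted p 0.760).

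Il4, the type 2 cytokine, had few reads outside aged Tconv. The Treg libraries had 1.78 and 0.966 CPM when aged, 1.69 and 0.714 CPM when labelled Dcaf1-deficient and 0.377 and 0.649 CPM when young. Its levels were 9.11 and 28.3 CPM in aged Tconv, 1.12 and 0.820 CPM in labelled Tconv and 1.41 and 2.70 CPM in young Tconv. Aged Tconv again lay above every other library and young Treg below every other, with only 7.87 and 14.6 estimated counts in young Treg. The aged Tconv mean of 18.7 ± 13.6 CPM was set mostly by replicate 2, against 2.05 ± 0.910 CPM in young Tconv (SD, n = 2 each; log2 fold change 3.19, SE 0.72, edgeR adjusted p 0.0383). Without aged Tconv 2 this was 2.15 and no longer passed (edgeR adjusted p 0.185). In labelled Tconv, Il4 lay below young Tconv with no overlap (log2 fold change -1.07, SE 0.69, edgeR adjusted p 0.599). In Treg the log2 difference was 1.41 in aged (SE 0.71, edgeR adjusted p 0.346) and 1.22 in labelled libraries (SE 0.71, edgeR adjusted p 0.299), each against young.

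Of the genes near Il4, Il13, Il5 and Rad50 were followed, since their locus is known for shared type 2 regulation. Il13, a second type 2 cytokine whose gene lies 12655 bases from Il4, had 79.1 and 3 estimated counts in aged Treg, 113 and 39.1 in labelled Treg and 0 and 4.99 in young Treg. It had 2 and 0 estimated counts in aged Tconv, 12 and 3 in labelled Tconv and 2 in each young Tconv library. Il13 thus had its highest counts in aged Treg 1 and the labelled Treg libraries, the libraries with the most macrophage transcripts, and almost none in aged Tconv, where Il4 was highest. The part of other cells in those counts was not tested. Il5, the type 2 cytokine 102125 bases from Il4, had at most 15 estimated counts in any library and 0 in both aged Tconv libraries, and was not tested. Rad50, the DNA repair gene whose locus lies between Il13 and Il5, had 84.7 and 99.7 CPM in aged Tconv and 79.8 and 78.8 CPM in young Tconv (0.22 on the log2 scale, SE 0.10, adjusted p 0.199 by edgeR).

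Bcl6, the repressor required by follicular helper cells, lay between 30.6 and 74.7 CPM in every library outside aged Tconv. The Treg values were 53.3 and 30.6 CPM in aged, 49.4 and 59.99 CPM in labelled and 43.6 and 74.7 CPM in young libraries. It had 146 and 260 CPM in aged Tconv, 46.7 and 48.2 CPM in labelled Tconv and 39.6 and 50.1 CPM in young Tconv. All groups but aged Tconv overlapped young Tconv. The aged Tconv mean was 203 ± 80.4 CPM against 44.8 ± 7.42 CPM in young Tconv (SD, n = 2 each). The log2 fold change with age was 2.18 in Tconv (SE 0.39, edgeR adjusted p 0.0232), or 1.70 without aged Tconv 2 (edgeR adjusted p 0.0944). In Treg it was -0.50 (SE 0.37, 95% interval -1.35 to 0.36, edgeR adjusted p 0.505). For the label the differences were -0.11 in Treg (edgeR adjusted p 0.853) and 0.08 in Tconv (edgeR adjusted p 0.947), each with an SE of 0.37. Young Treg 2, which held the highest Treg level, also held 27.4 CPM of germinal centre B cell markers (3 of 5 in the table), against 3.44 CPM in young Treg 1. Germinal centre B cells express Bcl6 too. The sum was 27.6 and 1.93 CPM in aged Treg, 29.4 and 10.2 CPM in labelled Treg and 1.17 to 4.58 CPM in the Tconv libraries. Its part in the Treg levels was not tested. In aged Tconv, B cell markers (5 of 8 in the table) summed to 39.8 and 15.4 CPM, against 12.9 and 136 CPM in young Tconv.

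Maf, the c-Maf activator, had the most ordered levels of the 5. In Treg it had 249 and 510 CPM in aged, 207 and 211 CPM in labelled and 102 and 111 CPM in young libraries. It had 372 and 667 CPM in aged Tconv, 79.1 and 68.6 CPM in labelled Tconv and 59.3 and 53.0 CPM in young Tconv. In CPM the order was aged Tconv, aged Treg, labelled Treg, young Treg, labelled Tconv and young Tconv. Among neighbours in it only the aged groups overlapped. The aged Tconv mean of 520 ± 209 CPM stood against 56.2 ± 4.45 CPM in young Tconv (SD, n = 2 each), a log2 fold change of 3.21 (SE 0.38, edgeR adjusted p 0.0126). For aged against young Treg it was 1.83 (SE 0.36, 95% interval 1.01 to 2.65, edgeR adjusted p 0.126). Without aged Treg 1, the library that stood apart, the difference was 2.26 and passed (edgeR adjusted p 0.0109), resting on aged Treg 2 alone. It also passed without either aged Tconv library (1.83, edgeR adjusted p 0.0463 and 0.0460), which enter this value only through the shared spread. Labelled against young Treg gave 0.97 (SE 0.35, edgeR adjusted p 0.161), called by DESeq2 (1.01, adjusted p 0.0400). Labelled against young Tconv gave 0.40 (SE 0.35, edgeR adjusted p 0.687).

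Nfil3, the E4BP4 repressor, was high in both aged Tconv libraries and in aged Treg 2. In Treg it had 29.3 and 99.6 CPM in aged, 21.7 and 17.3 CPM in labelled and 22.8 and 19.7 CPM in young libraries. It had 90.4 and 151 CPM in aged Tconv, 14.1 and 12.2 CPM in labelled Tconv and 10.04 and 10.7 CPM in young Tconv. The aged groups overlapped each other, as did labelled and young Treg, and labelled Tconv lay just above young Tconv. The aged Tconv mean was 121 ± 42.7 CPM against 10.4 ± 0.482 CPM in young Tconv (SD, n = 2 each). With age in Tconv the log2 fold change was 3.54 (SE 0.54, edgeR adjusted p 0.0177), or 3.12 without aged Tconv 2 (edgeR adjusted p 0.0641). With age in Treg it was 1.60 (SE 0.50, edgeR adjusted p 0.186), and the replicates of aged Treg differed widely. Without aged Treg 1 it was 2.23 (edgeR adjusted p 0.0117), and without aged Treg 2 it was 0.46 (edgeR adjusted p 0.422). For the label, edgeR gave a log2 difference of -0.12 in Treg (SE 0.49, adjusted p 0.880), and of 0.35 in Tconv (SE 0.50, adjusted p 0.808).

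**Figure D1:**
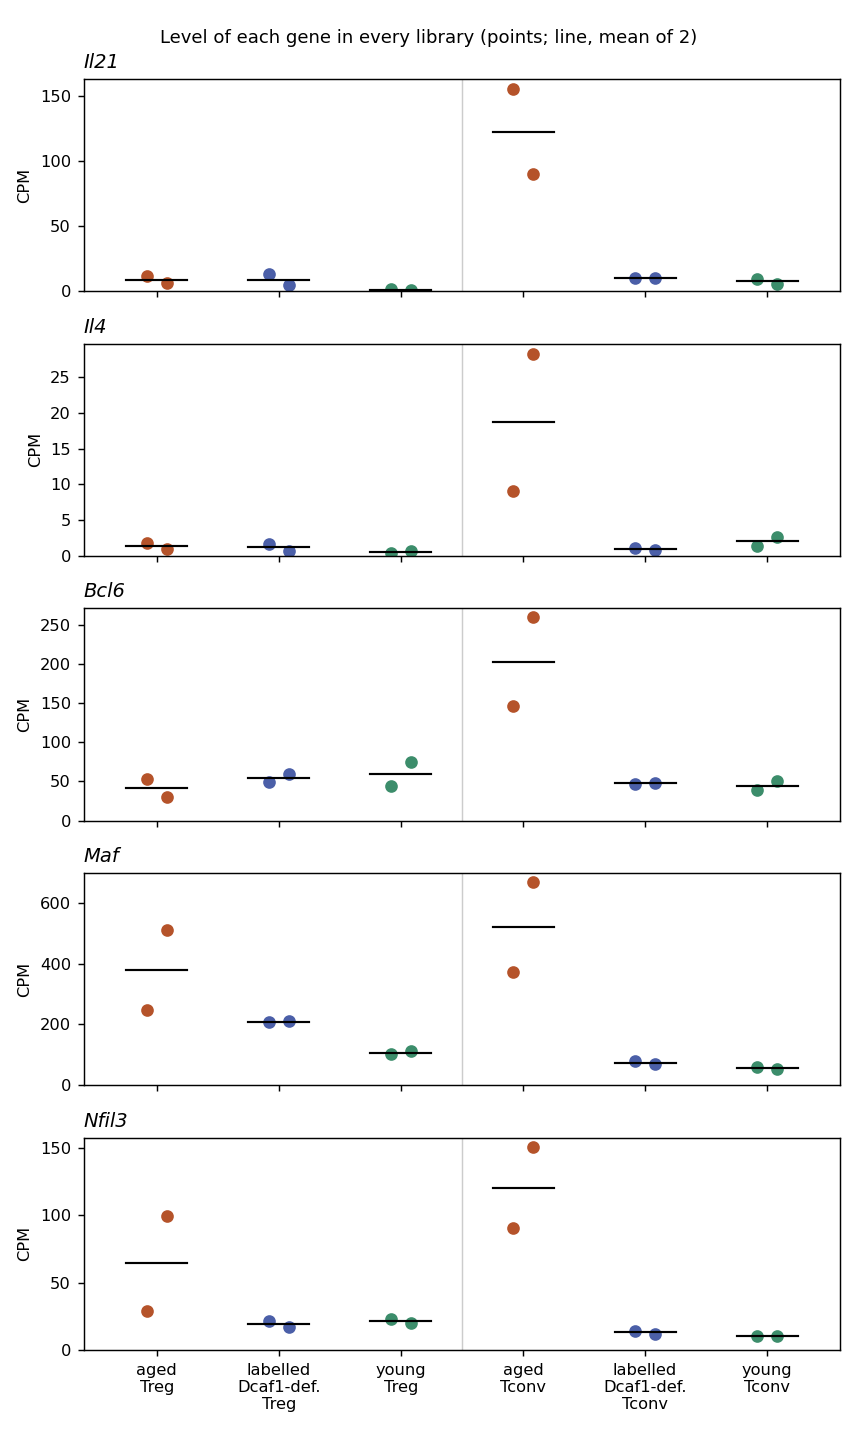
Level of Il21, Il4, Bcl6, Maf and Nfil3 in every library, in CPM on axes that start at 0. Points are the libraries, replicate 1 left of replicate 2, and lines are group means. Aged Tconv lies above every other library for Il21, Il4 and Bcl6, while for Maf and Nfil3 it overlaps aged Treg.

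Per kilobase of exon in GENCODE M21, which allows levels of different genes to be set side by side, the group means of the transcription factors stood above those of the cytokines in every group. Aged Treg had group means of 46.0 CPM per kilobase for Maf, 31.8 for Nfil3, 6.26 for Bcl6, 1.70 for Il21 and 1.12 for Il4. In young Treg the same quantities were 12.9, 10.5, 8.83, 0.230 and 0.418 CPM per kilobase. In aged Tconv they were 63.1 for Maf, 59.5 for Nfil3, 30.3 for Bcl6, 23.3 for Il21 and 15.2 for Il4. In young Tconv they were 6.82 for Maf, 5.13 for Nfil3, 6.69 for Bcl6, 1.43 for Il21 and 1.67 for Il4. The 3 factors thus lay close together in young Tconv, and the mean of Il21 was not above that of Il4 in either young group. It was above in both labelled groups too, at 1.67 against 0.979 CPM per kilobase in labelled Treg and 1.96 against 0.791 in labelled Tconv, and in young Tconv the 2 cytokines overlapped. In aged Tconv the ranges of Maf and Nfil3 overlapped, as did those of Bcl6, Il21 and Il4, and in aged Tconv 1 Il21 (29.6) lay above Bcl6 (21.8).

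For the question of what age changed in Tconv, edgeR called all 5 genes higher in aged Tconv, where it called 6.38% of tested genes higher. The members were chosen with these calls known, so nothing is read from that count. Every one of the 5 had both aged libraries above both young ones, which held for 29.9% of tested genes. The fold increases were 16.4 for Il21, 9.11 for Il4, 4.53 for Bcl6, 9.25 for Maf and 11.6 for Nfil3, against a median log2 change of 0.00 over all tested genes. All 5 calls were lost without either young Tconv library, with adjusted p of 0.118 to 0.249 in edgeR. Those fits called 0 genes in all, against 841, and the members' log2 fold changes in them were 2.02 to 4.38. Il21 and Maf alone remained without aged Tconv 2. Il21, Maf and Nfil3 were left without each of the 4 labelled libraries, and when a term for sex or for the tag entered the fit. Aged Tconv 2 was the only Xist-high and the only L3 library among the 4 compared, so age, sex and tag cannot be told apart for what rests on it.

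**Figure D2:**
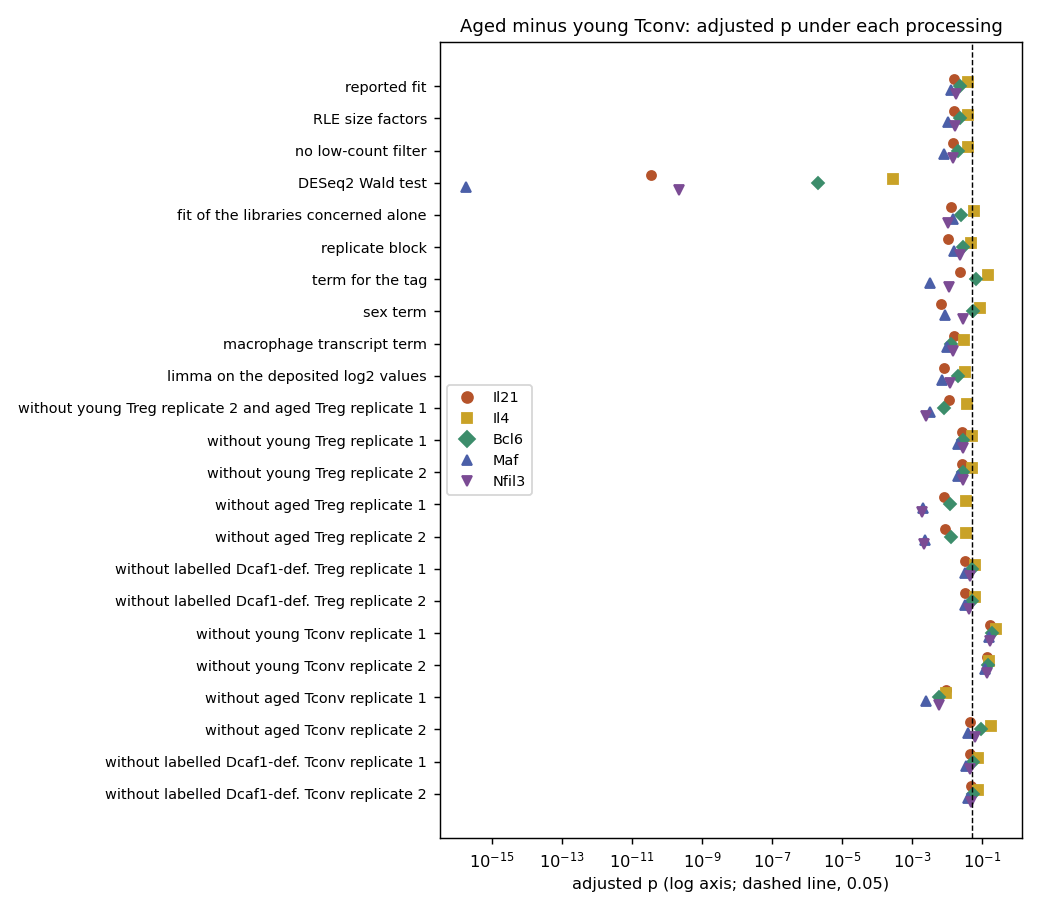
Adjusted p of each gene in aged against young Tconv, on a log axis, for the reported fit and each alternative processing (rows). The dashed line is 0.05, and all 5 genes lie to its right only without a young Tconv library, where adjusted p is 0.118 to 0.249.

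In aged against young Treg edgeR called 0 of the 5, as it did 0% of all tested genes. At an unadjusted p under 0.05, met by 17.9% of tested genes, it gave Il21, Maf and Nfil3. DESeq2, which called 6.21% of the genes it tested, called 3 members, and limma on the deposited log2 values called 0. The groups did not overlap for Il21, Il4, Maf and Nfil3, all higher in aged Treg, as for 20.2% of tested genes. Without aged Treg 1 the edgeR log2 differences were 2.26 for Maf and 2.23 for Nfil3. Without both it and young Treg 2 they were 2.29 and 2.09. Both fits leave aged Treg 2 alone in its group. It was the only Xist-high and the only L3 library among aged and young Treg, so age, sex and tag cannot be told apart for what rests on it. The difference between the age changes in Treg and in Tconv was tested as an interaction. On the log2 scale it was -2.67 for Bcl6 (SE 0.53, edgeR adjusted p 0.301), -1.94 for Nfil3 (SE 0.70, edgeR adjusted p 0.676), -1.78 for Il4 (SE 0.99, edgeR adjusted p 0.869), -1.38 for Maf (SE 0.49, edgeR adjusted p 0.664) and -1.14 for Il21 (SE 0.77, edgeR adjusted p 0.914). All 5 were below 0, meaning a smaller increase or a decrease in Treg, and none passed in edgeR, which called 0% of tested genes. Bcl6, Maf and Nfil3 had an unadjusted p under 0.05 (6.48% of tested genes), DESeq2 called Bcl6 (1.11% of its genes) and limma called 0 of the 5.

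The label was compared with young cells at the same age of 2 months. In Treg edgeR called 0 of the 5 (0% of tested genes), while Il21 and Maf had an unadjusted p under 0.05, as had 24.8% of tested genes. DESeq2, with 10.1% of its genes called, called Il21 and Maf, and limma 0 of the 5. Il21, Il4 and Maf lay above young Treg in both labelled libraries, as did 35.2% of tested genes. In Tconv edgeR, DESeq2 and limma each called 0 of the 5, and none had an unadjusted p under 0.05. Over all tested genes edgeR called 0%, DESeq2 1.88%, and 10% had an unadjusted p under 0.05. Il21, Maf and Nfil3 lay above young Tconv without overlap (34.2% of tested genes) and Il4 below it (32.7%). As an interaction the label's difference between Treg and Tconv was 2.40 for Il21 (SE 0.77) and 2.29 for Il4 (SE 1.00) on the log2 scale, with an edgeR adjusted p of 1 for all 5 genes. That interaction had 0 members called by edgeR, DESeq2 or limma, and 1 with an unadjusted p under 0.05 (Il21), against 0% of tested genes called by edgeR, 0.00871% by DESeq2 and 2.74% with such an unadjusted p.

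Within one group of mice, Treg were compared with Tconv. Between aged Treg and aged Tconv, Il21 was lower in Treg, with a log2 fold change of -3.78 (SE 0.58, edgeR adjusted p 0.0371), and so was Bcl6, at -2.27 (SE 0.39, edgeR adjusted p 0.0473). Il4 differed by -3.76 and did not pass (SE 0.74, edgeR adjusted p 0.0679), though it passed in limma and in DESeq2, which called 8.38% of its genes. The groups overlapped for Maf (-0.45, SE 0.35, edgeR adjusted p 0.497) and Nfil3 (-0.90, SE 0.49, edgeR adjusted p 0.358). EdgeR thus called 2 of 5 lower, with 0.527% of tested genes called lower. Il21 lost its call without aged Treg 1 (-4.23, edgeR adjusted p 0.0584) and without aged Treg 2 (-3.43, edgeR adjusted p 0.0549), and Bcl6 without aged Treg 2 (-1.93, edgeR adjusted p 0.0598) or aged Tconv 2 (-1.80, edgeR adjusted p 0.0888). Both were lost without either young or either labelled Tconv library, and 1 of the 2 without either labelled Treg library. Fits with the replicate number as a block kept Il21 (edgeR adjusted p 0.0106) and not Bcl6 (edgeR adjusted p 0.0657).

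Between young Treg and young Tconv edgeR called 0 of the 5, against 0.8% of tested genes. Il21 differed by -2.63 (SE 0.58, edgeR adjusted p 0.0840) and Il4 by -1.98 (SE 0.72, edgeR adjusted p 0.266), and both cytokines were lower in both Treg libraries. Maf at 0.92 (SE 0.35, edgeR adjusted p 0.287) and Nfil3 at 1.03 (SE 0.50, edgeR adjusted p 0.395) were on the other side. None of these 4 genes overlapped, which held for 24.4% of tested genes higher in Treg and 24.9% lower. At an unadjusted p under 0.05 (14.3% of tested genes) there were 3 members, DESeq2 called 1 (5.65% of its genes) and limma 0, and the fit with the replicate block called 1. Between labelled Treg and labelled Tconv edgeR called 0 of the 5, with 2.22% of tested genes called. Maf came nearest, at 1.499 (SE 0.35, edgeR adjusted p 0.0657). It passed without either aged Treg or either aged Tconv library, in fits where more genes were called in all. The aged libraries enter this value only through the shared spread. DESeq2 called 1 member there (12.6% of its genes) and limma 0, and 1 had an unadjusted p under 0.05, as had 24.8% of tested genes. The cytokines, Bcl6 and Nfil3 had 95% intervals that reached both sides of 0.

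**Figure D3:**
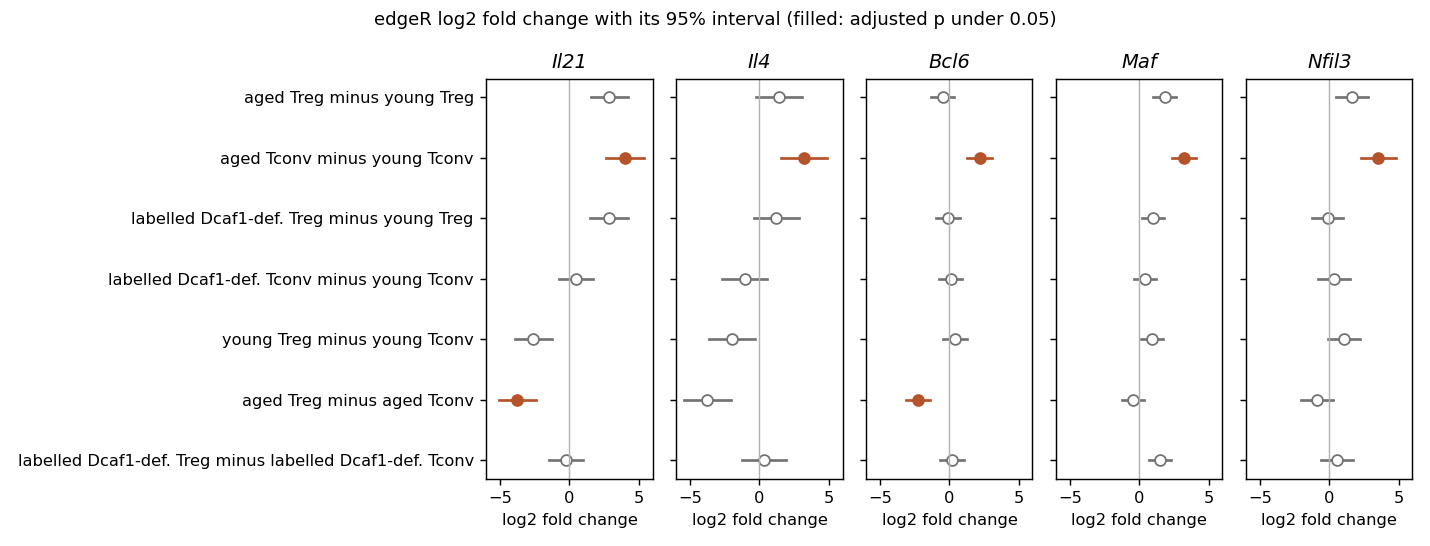
EdgeR log2 fold change of each gene (columns) in 7 comparisons (rows), with its 95% interval. Filled points passed an adjusted p of 0.05, which were all 5 genes in aged against young Tconv and Il21 and Bcl6 in aged Treg against aged Tconv.

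Since the Treg libraries differed in RNA of other cells, each gene was also set against 7 T cell marker genes, as the log2 level minus their mean log2 level in the same library. The marker mean was 8.48 and 9.66 log2 CPM in aged Treg, 8.25 and 8.12 in labelled Treg and 9.33 and 8.77 in young Treg. Relative to it, Maf was at -0.52 and -0.67 in aged Treg, -0.56 and -0.40 in labelled Treg and -2.66 and -1.97 in young Treg. On this scale aged and labelled Treg overlapped at Maf, and both lay above young Treg. The scale counts all RNA of a gene as that of T cells. Aged Treg 1 and both labelled Treg libraries held the most macrophage transcripts, and the part of other cells in the Maf level was not tested. Il21 was at -4.96 and -6.93 in aged Treg, -4.55 and -5.90 in labelled Treg and -8.66 and -8.77 in young Treg, again above the young with no overlap. Nfil3 was at -3.60 and -3.02 in aged Treg, -3.81 and -4.00 in labelled Treg and -4.82 and -4.46 in young Treg. On this scale, unlike in CPM, labelled Treg lay above young Treg at Nfil3. Il4 was at -7.57 and -9.58 in aged Treg, -7.42 and -8.44 in labelled Treg and -10.43 and -9.20 in young Treg, so that aged Treg overlapped the young. At Bcl6 both aged and labelled Treg overlapped young Treg. Fewer cells of a type and less RNA per cell cannot be told apart in such bulk libraries. In aged Tconv the relative values were -1.15 and -0.77 for Maf and -2.41 and -3.66 for Il21. In young Tconv they were -3.56 and -3.60 for Maf and -6.25 and -6.75 for Il21. At Maf, aged and labelled Treg thus lay above aged Tconv on this scale, unlike in CPM. At Bcl6, labelled Treg (-2.62 and -2.21) overlapped aged Tconv (-2.50 and -2.13), while aged Treg lay below it (-2.74 and -4.72).

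Treg markers (6 of 8 in the table) were themselves higher in aged Tconv, summing to 2354 and 3511 CPM, against 427 and 508 CPM in young Tconv. Foxp3, the transcription factor that defines Treg, had 334 and 675 CPM in aged Tconv and 47.7 and 78.4 CPM in young Tconv (3.002 on the log2 scale, SE 0.56, adjusted p 0.0248 by edgeR). Bcl6, Il21 and Il4 were higher in both aged Tconv libraries than in any library of the sorted CD25+ Treg. Maf was high in both aged Treg libraries too, and Nfil3 in aged Treg 2. The part of Treg in the aged Tconv level was not tested for any of these genes. Basophil and mast cell markers (6 of 9 in the table), from cells that also make IL-4, summed to 31.7 and 9.84 CPM in aged Tconv and 24.1 and 68.9 CPM in young Tconv. By edgeR 1 of these 6 was higher in aged than in young Tconv and 5 were lower. Their median log2 change was -2.32, and 0 were called. The higher one was Hdc, the histamine-forming enzyme, with 87.0 and 77.0 estimated counts in aged Tconv and 35.0 and 49.1 in young Tconv. Ms4a2 and Fcer1a, the IgE receptor chains, had 0 counts in both aged Tconv libraries and at most 3 in the young. Markers of NK and innate-like T cells (3 of 6 in the table) summed to 18.8 and 45.8 CPM in aged Tconv and 24.7 and 35.1 CPM in young Tconv. The part of any of these cells in the Il4 level was not tested.

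Across the 12 libraries the members moved together to different degrees, given here as Pearson correlations of log2 CPM that share libraries and group structure. Maf and Nfil3 correlated at 0.93, or 0.90 without the aged Tconv libraries. Il21 and Il4 correlated at 0.87, or 0.66 without them. Il4 and Bcl6 correlated at 0.84 with the aged Tconv libraries and at -0.09 without, and Bcl6 and Nfil3 at 0.60 and -0.43. Bcl6 thus followed the others through aged Tconv. Among 7522 genes that averaged 4 CPM or more, those most like Il21 across the 12 libraries included Flot1 (0.92) and Gzmk, a granzyme gene (0.91). For Il4 they were Efnb2 (0.92), Csgalnact1 (0.92) and Zfpm1, a GATA cofactor gene (0.91), and for Bcl6 Eomes, a T-box factor gene (0.90), Fgfr1op (0.89) and Gnptab (0.89). Genes most like Maf included Sec14l1 (0.98) and Il1r2, a decoy receptor gene (0.98), and Nfil3 was most like Spock2, Casp4 and Clip3 (0.99 each).

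Of 24 other follicular helper genes, 21 were tested, and in aged against young Tconv 8 rose and 2 fell (8.86% of tested genes were called in either direction), with a median log2 change of 0.73 against 0.00 for all tested genes. Tox2, an HMG box factor of follicular cells, had 103 and 199 CPM in aged Tconv and 7.23 and 6.44 CPM in young Tconv (4.47 on the log2 scale, SE 0.51, adjusted p 0.0126 by edgeR). Pdcd1, the inhibitory receptor PD-1, had 338 and 1574 CPM in aged Tconv and 24.7 and 20.2 CPM in young Tconv (5.41, SE 0.91, edgeR adjusted p 0.0208). Icos, the costimulatory receptor, had 440 and 575 CPM in aged Tconv and 140 and 150 CPM in young Tconv (1.81, SE 0.34, edgeR adjusted p 0.0251). Ascl2, a follicular helper transcription factor, had 8.89 and 35.2 CPM in aged Tconv and 0.469 and 0.110 CPM in young Tconv (6.20, SE 1.45, edgeR adjusted p 0.0419). Batf, an AP-1 factor, rose by 2.57, Tox by 2.28, the SLAM adaptor gene Sh2d1a by 1.55 and Irf4 by 1.42. The list did not move as one. Lef1, a factor of naive and early follicular cells, fell by 2.14 (edgeR adjusted p 0.0323) and Cd40lg, the helper ligand for B cells, fell by 0.74 (edgeR adjusted p 0.0478). Tcf7, which promotes Bcl6, had 1771 and 580 CPM in aged Tconv and 2107 and 1958 CPM in young Tconv and did not pass. The 10 calls became 0 when a young Tconv library was left out, 2 without aged Tconv 2 or a labelled Treg library, 1 or 2 without a labelled Tconv library, 6 with the tag term and 3 with the sex term.

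Among 10 genes that oppose the follicular program, 7 were tested, and in aged against young Tconv 1 rose and 2 fell. EdgeR called 8.86% of all tested genes there. The median log2 change was -1.24 in the list, against -0.002 over all tested genes. Prdm1 (Blimp-1, the factor that represses Bcl6) had 98.0 and 189 CPM in aged Tconv and 18.3 and 19.6 CPM in young Tconv, so it rose along with Bcl6 (2.92, SE 0.62, edgeR adjusted p 0.0328). Foxo1, a factor of naive T cells, fell by 1.24 and Selplg, the selectin ligand PSGL-1, fell by 0.78. The remaining 4 did not pass. The list had 0 calls with the sex term and 1 in a fit of the Tconv libraries alone, labelled ones included. Its calls did not hold when aged Tconv 2, a young Tconv library or any 1 labelled library was left out. Their number rose without aged Tconv 1.

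The type 2 helper list gave a mixed picture around Il4: of 22 genes 13 were tested, and in aged Tconv 3 rose and 1 fell. EdgeR called 8.86% of all tested genes there. The median log2 change was 0.42 in the list, against -0.002 over all tested genes. Gata3, the type 2 master factor, had 119 and 93.6 CPM in aged Tconv and 82.9 and 75.8 CPM in young Tconv and did not pass (0.42, SE 0.46, edgeR adjusted p 0.576). Il10 had 105 and 168 CPM in aged Tconv and 3.10 and 3.69 CPM in young Tconv (5.33, SE 0.90, edgeR adjusted p 0.0209). Areg, the growth factor amphiregulin, had 23.7 and 28.2 CPM in aged Tconv and 0.563 and 0.880 CPM in young Tconv (5.17, SE 0.91, edgeR adjusted p 0.0226). Irf4, also in the follicular list, was the third that rose. Il10 and Areg are made by Treg and other subsets as well as by type 2 cells. Il17rb, the IL-25 receptor, fell by 1.98 (edgeR adjusted p 0.0413). The 4 calls became 0 when any 1 of young Tconv 1, young Tconv 2, aged Tconv 2 or labelled Tconv 2 was left out, 1 when any other labelled library was, and 2 with the tag or the sex term.

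In aged against young Treg, and in labelled against young Treg and Tconv, edgeR called 0 genes of these 3 lists, as it called 0% of tested genes there, and limma called 0. Of the 21 follicular helper genes tested, 11 in aged Treg, 6 in labelled Treg and 0 in labelled Tconv had an unadjusted p under 0.05, where 17.9%, 24.8% and 10% of all tested genes had, and DESeq2 called 9, 5 and 0, where it called 6.21%, 10.1% and 1.88% of its genes. The same counts over the 13 type 2 genes were 3, 2 and 1 by unadjusted p and 3, 1 and 1 by DESeq2, and over the 7 opposing genes 3, 1 and 0 and 1, 1 and 0. Between cell types the helper ligand gene Cd40lg was lower in Treg in each group of mice, with log2 fold changes of -3.10 in aged, -3.62 in labelled and -2.45 in young mice. Tox2 was lower in aged Treg than in aged Tconv (-3.23), where edgeR called 0.527% of tested genes lower. Tcf7 (-2.84) and Lef1 (-2.38) were lower in labelled Treg than in labelled Tconv, where 2.22% were called. The T cell marker mean was also lower in labelled Treg, at 8.25 and 8.12 against 9.345 and 9.33 log2 CPM. Cd200, of the follicular helper list, was called higher in young Treg than in young Tconv, where 0.8% were called. It had 130 and 98.9 CPM in young Treg and 37.2 and 41.5 CPM in young Tconv. Il1rl1, the IL-33 receptor ST2 of type 2 cells and tissue Treg, was higher in aged Treg than in aged Tconv by 3.93.

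**Figure D4:**
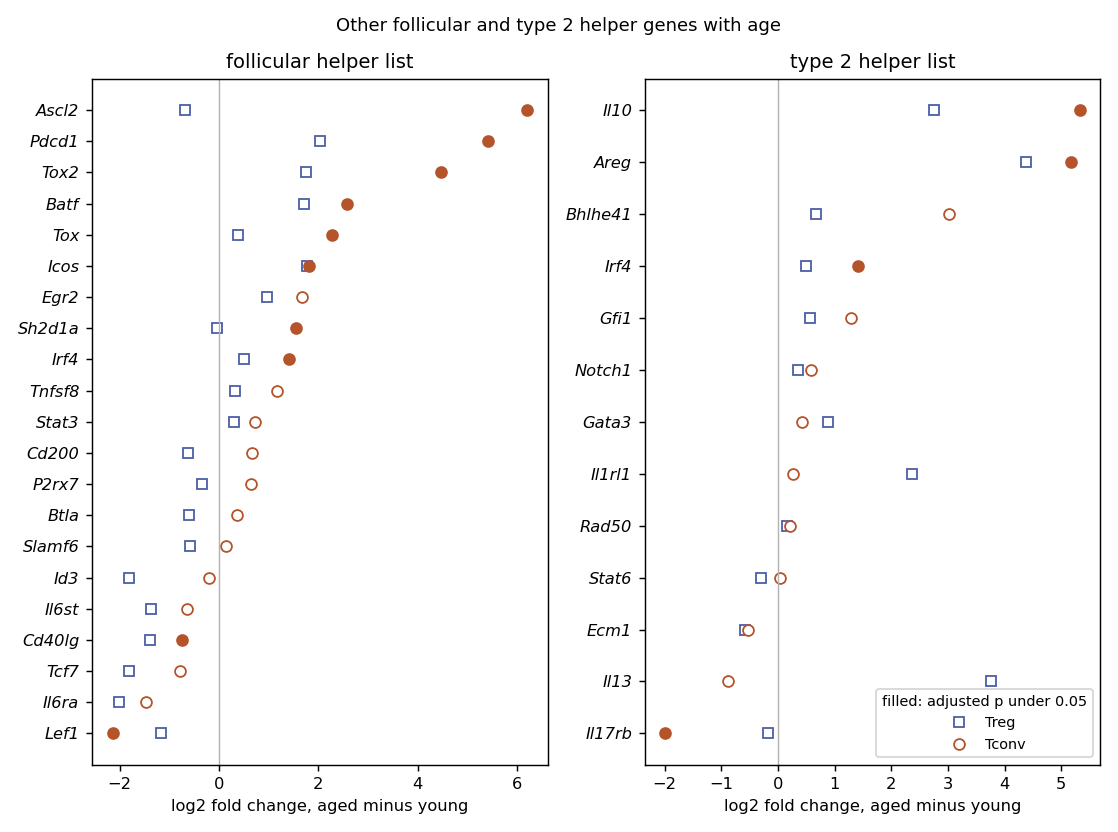
EdgeR log2 fold change of aged against young cells for the tested follicular helper genes (left) and type 2 helper genes (right), squares for Treg and circles for Tconv, filled where adjusted p was under 0.05. Filled points occur in Tconv alone, for 10 follicular and 4 type 2 genes, and Irf4 stands in both lists.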

How the data were processed

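The 12 libraries were grouped by their titles into 6 groups of 2. The authors deposited estimated counts per gene (Salmon 0.9.1 and mm10 per the submitters' processing notes, tximport per the file name; transcript annotation not stated) and log2 values made with DESeq2 per the submitters' processing notes, whose transform is not stated. Counts were rounded and fitted with edgeR 4.0.16 (R 4.3.3, quasi-likelihood test): TMM scaling, filterByExpr (9495 genes tested), 1 fit of 6 group means over all 12 libraries (6 residual degrees of freedom), Benjamini-Hochberg over all tested genes in each comparison, called at 0.05. The standard error is the fold change over the root of its F statistic. DESeq2 ran without filterByExpr, and its shares are over 11486 genes, not over the 9495 that edgeR tested. Alternatives were RLE size factors, no filter, DESeq2 1.42.0, limma 3.58.1 on the deposited log2 values, fits of the libraries concerned alone, a replicate block, terms for tag, sex and macrophage transcripts, a log2 fold change of at least 1, and leaving out each library, or young Treg 2 and aged Treg 1 together. The tests were tested on simulated data. Members, gene lists and alternatives were chosen with earlier results of these data known. Named genes are the 5 members, the 3 genes most correlated with each, up to 4 called genes per list and comparison with the smallest adjusted p, and fixed names such as Dcaf1, Foxp3, Gata3, Cd40lg and Il13; Ascl2, Tox, Sh2d1a, Lef1 and Tcf7 in aged Tconv were added after their values were seen. Some genes that this rule names are not reported here. Genes that the table does not hold, such as Cxcr5, Il4ra and Il21r, were not analysed here. Depth makes 3 counts equal to 0.106 to 0.167 CPM per library, for counting error only.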

Additional observations from a re-analysis of the deposited data

How the results depend on the processing

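Of 985 alternative values of single members, 963 kept their direction. The number of the 5 genes called changed as follows. In aged against young Tconv (5) it was 3 with the sex term and 3 with the tag term. It was 4 in a fit of the Tconv libraries alone, labelled ones included, and it fell in some fits with 1 library left out. In aged against young Treg (0) it was 3 by DESeq2. It rose without young Treg 2 and aged Treg 1 together and in some fits with 1 library left out, where more genes were called in all. In labelled against young Treg (0) it was 2 by DESeq2. Between aged Treg and aged Tconv (2) it was 1 with RLE size factors, the replicate block, the tag term, the sex term or without both doubted libraries, 0 with the macrophage term or the 4 libraries alone, 3 by DESeq2 and by limma, and 0 to 3 when 1 library was left out (3 without aged Tconv 1). Between young Treg and young Tconv (0) it was 1 by DESeq2 and with the block, the tag or the sex term. Between labelled Treg and labelled Tconv (0) it was 1 by DESeq2, with the sex term or without both doubted libraries, 2 in a fit of those libraries alone, which called 4712 genes in all against 211, and 0 to 1 when 1 library was left out. For the age interaction (0) it was 1 by DESeq2 and with the tag term. The cause of these changes was not tested; fits without a library have fewer degrees of freedom.

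Directions turned for 22 values, none of them called. For Bcl6 these were, in the label interaction, 0.24 without young Treg 2 (range with 1 library left out -0.54 to 0.24) and 0.26 without both doubted libraries; in labelled Tconv -0.44 (macrophage term), -0.028 (sex term) and -0.062 (without young Tconv 1; range -0.062 to 0.26); in labelled against young Treg 0.02 (without labelled Treg 1), 0.32 (without young Treg 2; range -0.45 to 0.32) and 0.33 (without both doubted libraries). Between labelled Treg and Tconv Bcl6 was -0.26 (macrophage term) and -0.12 (tag term), and between young Treg and Tconv -0.12 (macrophage term), -0.039 (without young Treg 2; range -0.039 to 0.74) and -0.02 (without both). Between labelled Treg and Tconv Il21 was 0.33 without labelled Treg 2 (range -1.17 to 0.33), and Il4 was -0.23 (macrophage term) and -0.45 (without labelled Treg 1; range -0.45 to 0.79). Maf was -0.24 in labelled Tconv (sex term), and 0.036 (macrophage term) and 0.028 (without aged Tconv 2; range -1.06 to 0.028) between aged Treg and Tconv. Nfil3 was -0.39 in labelled Tconv (sex term), and 0.46 (macrophage term) and 0.026 (without labelled Treg 2; range -0.30 to 0.026) in labelled against young Treg.

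Nothing in the labels says that equal replicate numbers mark shared animals. Same-numbered libraries deviated together in young Treg and young Tconv (r 0.68), less in aged Treg and aged Tconv (0.27) and not in the labelled groups (0.04), while aged and young Treg deviated oppositely (-0.66). The replicate block changed the number of members called between aged Treg and aged Tconv and between young Treg and young Tconv, as given above, and in no other comparison; the crossed pairing of aged and young Treg, chosen after seeing the data, called 0. With 2 libraries a group and cytokine counts down to 7.87 in young Treg, changes of Il4 and Il21 there rest on few reads.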

Other observations

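In aged against young Tconv, where 8.86% of tested genes were called, other gene groups tied to the 5 members were counted. Of 18 genes of type 1 and type 17 helper cells 16 were tested and 2 rose, with a median log2 change of 0.52, while 6 had an unadjusted p under 0.05 and DESeq2 called 6. Il1r1, the IL-1 receptor, had 32.9 and 375 CPM in aged Tconv and 4.22 and 3.19 CPM in young Tconv (5.78 on the log2 scale, SE 1.196, adjusted p 0.0312 by edgeR), and Rora, a nuclear receptor gene, rose by 1.23 (edgeR adjusted p 0.0449). Of the large and small Maf proteins and their partners 8 of 11 were tested, and Mafg, a small Maf, rose by 1.86 (29.05 and 52.3 CPM in aged Tconv, 11.5 and 10.8 CPM in young Tconv; edgeR adjusted p 0.0226). Of 12 clock genes that work with or against Nfil3 9 were tested. Of 13 genes of IL-4 and IL-21 receptors and signalling 10 were tested. EdgeR and limma called 0 of either in aged against young Tconv. DESeq2 called 4 and 5, again with 2050 of its genes called. Jak1, a kinase of the IL-4 and IL-21 receptors, was lower in labelled Treg than in labelled Tconv (log2 fold change -0.82). The mean of the T cell markers was also lower there, at 8.25 and 8.12 log2 CPM in labelled Treg and 9.345 and 9.33 in labelled Tconv. The part of other cells' RNA in the Jak1 difference was not tested.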
